A study of Mus musculus with 2 samples.

Results

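The TGF-beta system was described here through 10 genes, chosen by name: the ligands *Tgfb1*, *Tgfb2* and *Tgfb3*, the receptors *Tgfbr1*, *Tgfbr2* and *Tgfbr3*, and the signal carriers *Smad2*, *Smad3*, *Smad4* and *Smad7*. They are 10 of 25810 genes listed by symbol, and all 10 passed the minimum of 1 RPM in at least 1 of the libraries, which 14026 genes did. An RPM value is a read count divided by the mapped reads of its library and scaled to a common total. The study sequenced poly(A) RNA of mammary epithelial cells (MECs) from inguinal glands of lactating mice on lactation day 3, to find which transcripts differ when *Igfbp7*, a secreted binding protein of the insulin-like growth factor family, is missing. There were 2 libraries, 1 from wild type (WT) and 1 from *Igfbp7-/-* (KO) mice, and no replicates. The KO allele lacks the first coding exon of *Igfbp7*, removed in embryonic stem cells, so every tissue of the animal carries the deletion. The label of both samples gives C57BL/6 as the genetic background, whereas the methods say that the KO mice were made on CD1. The age of the mice and the number of animals behind each library were not given in the sources used here. Both cell suspensions had gone through magnetic depletion of cells carrying CD45, Ter119 and, according to the methods, CD31 (the label names CD35), so leukocytes, red cells and endothelial cells should be scarce in either library.

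TGF-beta ligands are secreted in a latent complex and have to be released before they act. A free ligand binds the type II receptor *Tgfbr2*, which recruits and phosphorylates the type I receptor *Tgfbr1*, while the co-receptor *Tgfbr3* (betaglycan) presents ligand, above all TGF-beta 2, to *Tgfbr2*. The activated type I receptor phosphorylates *Smad2* and *Smad3*, which join *Smad4*, enter the nucleus and regulate transcription, and the inhibitory *Smad7*, itself a target gene of the pathway, blocks the receptors in a negative feedback loop. In the mammary gland TGF-beta is known as a brake on ductal growth and on milk production, and *Tgfb3* as a ligand that is induced when involution begins.

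The labels were checked on *Igfbp7* itself, which had 152.2 RPM (5224 reads) in WT and 1.06 RPM (37 reads) in KO. The libraries held 34327854 mapped reads in WT and 35016847 in KO, of which 82.3% and 72.3% fell on listed genes. Milk protein transcripts were abundant in both libraries, with *Csn2* (β-casein) at 53087 RPM in WT and 19970 RPM in KO. Cell type markers differed widely between the libraries. Of 8 endothelial markers 7 were lower in KO by at least 1.5 times, with a summed level of 1334 RPM in WT and 428.9 RPM in KO. Of 11 leukocyte markers 10 were lower (756.4 and 152.1 RPM summed), as were 7 of 8 myoepithelial markers (3642 and 1184 RPM) and 4 of 9 fibroblast markers (10669 and 5829 RPM). Of 6 hormone-sensing luminal markers 5 were higher by at least 1.5 times (145.9 and 236.0 RPM), but only 3 of the 6 reached 10 RPM in either library. Of these 3, *Esr1* (4.46 and 10.9 RPM) and *Prlr* (30.2 and 102.6 RPM) were higher, and *Ly6a* was not (107.8 and 106.4 RPM). No marker of these 5 lists was at 0 in either library, so the depleted cell types were still represented in both. In RNA pooled from many cells, fewer cells of a type and less RNA per cell cannot be told apart.

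Ratios were taken as KO over WT after adding 0.1 RPM to both values, and "higher" or "lower" below means by at least 1.5 times, the fold threshold that the study used. By this rule 5 of the 10 members were higher in KO (*Tgfb2*, *Tgfb3*, *Tgfbr1*, *Smad2* and *Smad7*), 2 were lower (*Tgfb1* and *Tgfbr3*), and 3 differed by less than 1.5 times (*Tgfbr2*, *Smad3* and *Smad4*). Among all 14026 genes 21.4% were higher and 23.0% were lower, and at a minimum level of 10 RPM, which 8201 genes and all 10 members passed, 20.7% were higher and 20.4% were lower. With 10 members these background rates correspond to a few genes in each direction. The median log2 ratio of the members was 0.51, against 0.03 for all 14026 genes, whose quartiles were -0.52 and 0.51. At a threshold of 2-fold 1 member was higher (*Smad7*) and 2 were lower (*Tgfb1* and *Tgfbr3*), where 9.64% of all genes were higher and 13.8% were lower. With 1 library per genotype no difference could be tested against the variation between animals. Every interval below is an exact 95% interval on read pairs, since counts were mostly even, and it covers the counting of reads only. Asking that the whole interval lie past 1.5 times left 4 members higher and 2 lower, *Smad2* dropping out, against 11.2% and 14.7% of all genes.

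**Figure D1:**
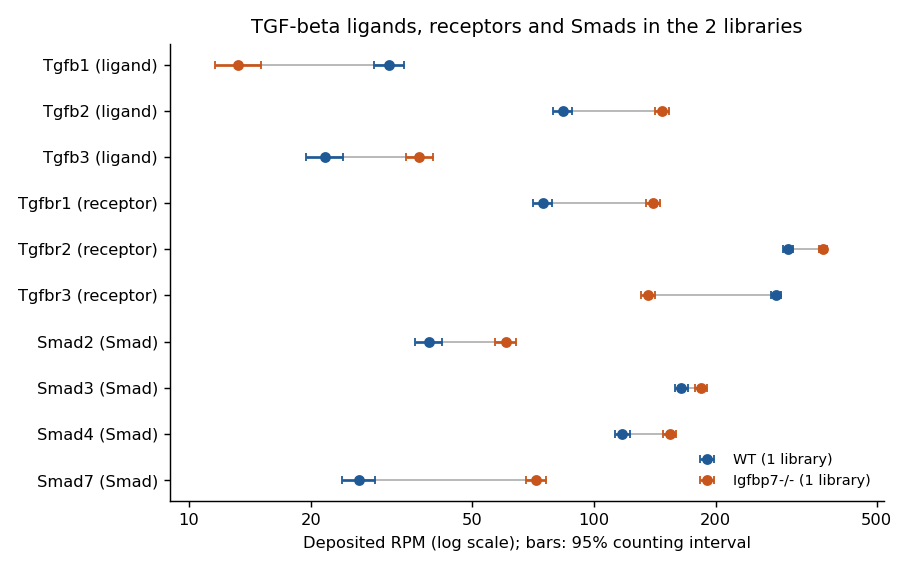
Deposited RPM (x axis, log scale) of the 10 genes (y axis) in the WT library (blue) and the *Igfbp7-/-* library (orange), with exact 95% Poisson intervals of the read pairs as bars. *Tgfb1* and *Tgfbr3* lie to the left in *Igfbp7-/-* and the other 8 genes lie to the right, with values between 13.2 and 367.9 RPM.

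The ligand genes went in opposite directions. *Tgfb1*, the ligand gene best known from immune cells, platelets and vessels, had 31.2 RPM (1071 reads) in WT and 13.2 RPM (463 reads) in KO, so it was 2.35 times lower (log2 ratio -1.23, interval -1.47 to -1.02). *Tgfb2* had 83.8 RPM (2876 reads) in WT and 147.5 RPM (5164 reads) in KO, 1.76 times higher (log2 ratio 0.82, 0.72 to 0.91). *Tgfb3* had 21.6 RPM (743 reads) in WT and 37.1 RPM (1299 reads) in KO, 1.71 times higher (0.77, 0.59 to 0.97). *Tgfb2* and *Tgfb3* were thus higher by similar factors, while *Tgfb1* was lower by a larger one. Of all genes, 10.3% had a lower ratio than *Tgfb1*, whereas 13.9% had a ratio at least as high as that of *Tgfb2* and 15.1% one at least as high as that of *Tgfb3*.

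Per length, that is in RPM per kilobase (RPKM), the ligands stood in another order in each library. In WT the level of *Tgfb2* was 17.7 RPKM, that of *Tgfb1* was 14.9 RPKM and that of *Tgfb3* was 6.36 RPKM. In KO they were 31.2, 6.31 and 10.9 RPKM, which put *Tgfb1* last. *Tgfb1* made up 38.2% of the summed ligand RPKM in WT and 13.0% in KO, while *Tgfb2* made up 45.5% and 64.4%. The RPKM of *Tgfb2* was 1.19 times that of *Tgfb1* in WT (interval 1.08 to 1.32) and 4.94 times in KO (4.33 to 5.69). The RPKM of *Tgfb2* relative to that of *Tgfb3* was alike in both libraries, 2.79 times in WT (2.49 to 3.14) and 2.86 times in KO (2.63 to 3.13). Such ratios within a library do not depend on the total by which its reads were scaled.

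The promoters of *Tgfb1* and *Tgfb2* are shown because these ligand genes differed in opposite directions, and that of *Tgfbr1* because it differed in the direction of *Tgfb2*. Each run holds the 250 bases before the transcription start, taken from RefSeq on the GRCm38.p6 build and written 5′ to 3′ on the gene's strand. That table matched 5 of the 7 members for which it was read, with 6 start sites. Capitals mark matches on either strand. The TATA box was searched as TATAAA. The GC box, which Sp1-like factors bind, was searched as GGGCGG. The short Smad motif was searched as CAGACA.
*Tgfb1*, chr7:25686752-25687001, plus strand: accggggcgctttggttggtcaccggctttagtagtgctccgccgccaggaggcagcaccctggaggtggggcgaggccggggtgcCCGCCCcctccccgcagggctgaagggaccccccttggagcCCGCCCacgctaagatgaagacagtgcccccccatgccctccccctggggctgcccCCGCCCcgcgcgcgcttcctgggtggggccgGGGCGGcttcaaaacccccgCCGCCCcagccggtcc
*Tgfb2*, chr1:186705990-186706239, minus strand: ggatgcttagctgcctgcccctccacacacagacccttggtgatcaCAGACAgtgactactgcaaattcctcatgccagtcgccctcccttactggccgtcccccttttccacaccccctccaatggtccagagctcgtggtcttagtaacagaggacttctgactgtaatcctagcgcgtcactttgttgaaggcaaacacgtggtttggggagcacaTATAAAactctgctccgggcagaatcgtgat
*Tgfbr1*, chr4:47352972-47353221, plus strand: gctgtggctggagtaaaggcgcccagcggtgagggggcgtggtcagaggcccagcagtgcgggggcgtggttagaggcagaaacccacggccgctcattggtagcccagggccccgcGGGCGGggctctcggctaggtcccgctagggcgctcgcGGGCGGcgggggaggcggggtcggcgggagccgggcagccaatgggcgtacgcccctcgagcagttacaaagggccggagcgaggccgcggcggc

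The windows differ in make-up. That of *Tgfb1* was 75.2% G and C and held 5 GC boxes and no TATA box. That of *Tgfb2* was 53.6% G and C and held 1 TATA box, whose first base lies 31 bases before the start, 1 short Smad motif and no GC box. That of *Tgfbr1* was 74.8% G and C, with 2 GC boxes, and the median over all promoters was 52.4%. Of 32851 promoters of the same length in the table, 32.7% held a GC box, 12.4% a TATA box and 17.1% the short Smad motif. The palindromic Smad motif GTCTAGAC was held by 0.167% of all promoters. The cAMP response motif TGACGTCA was held by 1.55% of them. The AP-1 motif, searched as TGAGTCA, was held by 4.46%. None of these last 3 was matched in the 6 windows read for members. The further start site of *Tgfbr1* held 1 short Smad motif, the window of *Smad3* held 2 GC boxes, and that of *Tgfbr2* held none of the 6 motifs searched. These matches describe letters and were not tested as binding sites. The sequence build differs from that of the counts, so the coordinates of these windows cannot be set beside the gene positions given below.

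The receptor genes split as well. *Tgfbr1*, the type I receptor kinase, had 74.7 RPM (2566 reads) in WT and 139.9 RPM (4900 reads) in KO, 1.87 times higher (log2 ratio 0.90, interval 0.81 to 1.003). *Tgfbr2*, the ligand-binding type II receptor, had 302.0 RPM (10368 reads) in WT and 367.9 RPM (12883 reads) in KO, a ratio of 1.22 that stayed under the threshold (log2 ratio 0.28, 0.23 to 0.34). *Tgfbr3* had 281.3 RPM (9655 reads) in WT and 136.3 RPM (4772 reads) in KO, 2.06 times lower (log2 ratio -1.04, -1.12 to -0.97). The signalling receptor that was scarcest in WT was thus nearer to its partner in KO, and the co-receptor was the one that was lower. The upper end of the interval of *Tgfbr3* lay well below a ratio of 1, and 13.0% of all genes had a lower ratio.

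On the RPKM scale *Tgfbr2* had the highest level of the 10 members in both libraries, 62.9 RPKM in WT and 76.6 RPKM in KO. *Tgfbr3* stood second in WT with 46.3 RPKM and seventh in KO with 22.4 RPKM. *Tgfbr1* had 13.0 RPKM in WT and 24.4 RPKM in KO. The RPKM of *Tgfbr2* was 4.82 times that of *Tgfbr1* in WT (interval 4.54 to 5.13) and 3.14 times in KO (3.00 to 3.29), and that of *Tgfbr1* was 0.28 times that of *Tgfbr3* in WT (0.26 to 0.30) and 1.09 times in KO (1.03 to 1.15). The summed RPKM of the 3 receptor genes was almost the same in WT (122.2) and KO (123.4), but *Tgfbr3* supplied 37.9% of it in WT and 18.2% in KO. These values depend on the length given to *Tgfbr2*, for which the authors' RPKM implies 4.80 kb while the longest annotated coding transcript has 8088 bases. With annotated lengths, an alternative added after seeing the data, the level of *Tgfbr2* was 2.88 times that of *Tgfbr1* in WT and 1.87 times in KO. *Tgfbr3* then came first of all members in WT and supplied 47.9% of the receptor sum there and 24.3% in KO, and that sum was 96.5 in WT and 92.2 in KO. The lower share of *Tgfbr3* and the lower ratio of *Tgfbr2* to *Tgfbr1* in KO were found with either set of lengths. This is no separate support. A gene has the same length in both libraries, so the choice of lengths could not reverse either difference.

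**Figure D2:**
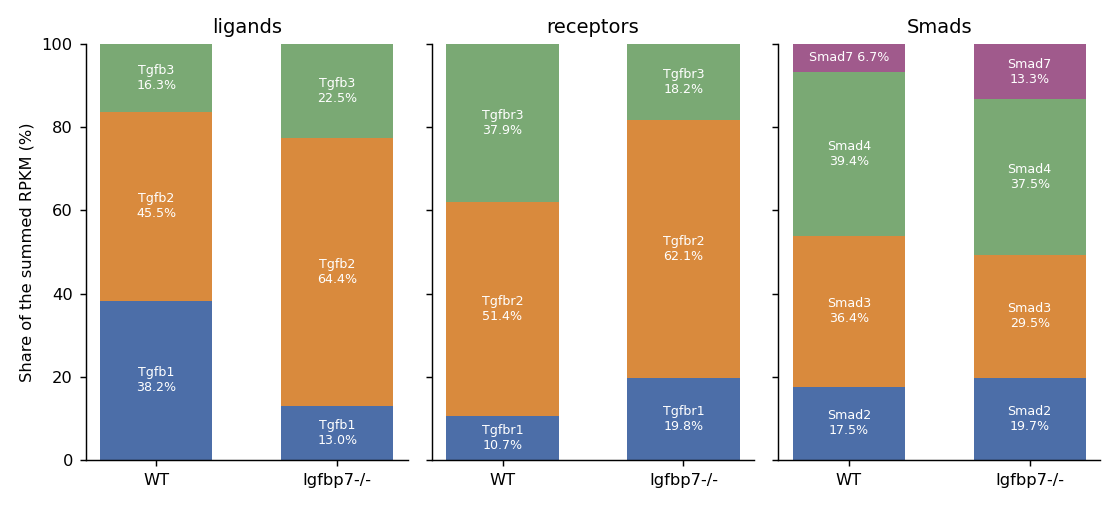
Share of the summed RPKM (y axis, %) that each gene supplied within the ligands, the receptors and the Smads (panels), in the WT and the *Igfbp7-/-* library (bars). *Tgfb1* goes from 38.2% of the ligand total to 13.0%, *Tgfbr3* from 37.9% of the receptor total to 18.2%, and *Smad7* from 6.66% of the Smad total to 13.3%.

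All 4 Smad genes had more RPM in KO than in WT, and 2 of them passed 1.5 times. *Smad7*, the inhibitory Smad, had 26.3 RPM (902 reads) in WT and 71.9 RPM (2519 reads) in KO, which made it 2.73 times higher (log2 ratio 1.45, interval 1.30 to 1.61). This was the largest ratio among the 10 members, and 4.02% of all genes had one at least as high. *Smad2*, one of the receptor-activated Smads, had 39.2 RPM (1344 reads) in WT and 60.5 RPM (2120 reads) in KO, 1.54 times higher (0.63, 0.49 to 0.77), with an interval that reached below 1.5 times. *Smad3*, its partner, had 164.5 RPM (5646 reads) in WT and 183.7 RPM (6434 reads) in KO, a ratio of 1.12 (0.16, 0.09 to 0.23). *Smad4*, the common partner of the receptor-activated Smads, had 117.7 RPM (4039 reads) in WT and 153.9 RPM (5390 reads) in KO, a ratio of 1.31 (0.39, 0.30 to 0.47). *Smad3* and *Smad4* thus differed between the libraries by more than the counting of reads but by less than 1.5 times.

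*Smad4* and *Smad3* were the most abundant Smads per length in both libraries, with 35.0 and 32.3 RPKM in WT and 45.8 and 36.1 RPKM in KO. *Smad2* had 15.6 RPKM in WT and 24.1 RPKM in KO. *Smad7* was the scarcest Smad in either library, at 5.92 RPKM in WT and 16.2 RPKM in KO. Relative to *Smad7*, the RPKM of *Smad3* was 5.46 times as high in WT (interval 4.94 to 6.05) and 2.23 times as high in KO (2.09 to 2.38), and that of *Smad2* was 2.63 times as high in WT (2.33 to 2.97) and 1.49 times as high in KO (1.37 to 1.62). The RPKM of the receptor-activated Smads relative to the inhibitory one was thus lower in KO, whichever of them is taken. *Smad7* supplied 6.66% of the summed Smad RPKM in WT and 13.3% in KO.

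**Figure D3:**
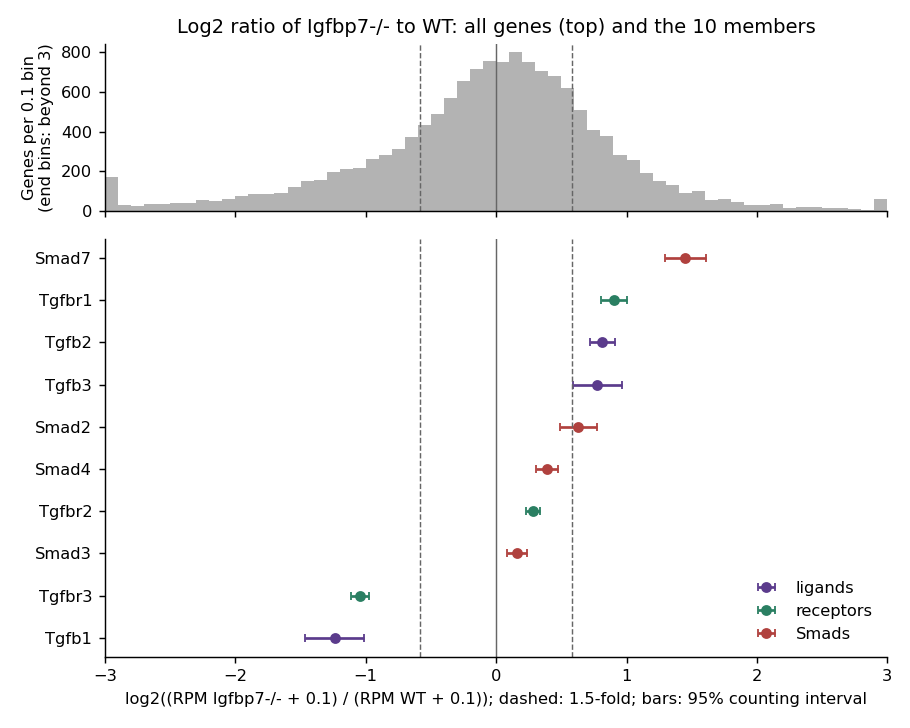
Top, number of genes per 0.1 bin of the log2 ratio of *Igfbp7-/-* to WT for all 14026 genes that passed the minimum level, with ratios beyond 3 in either direction collected in the end bins. Bottom, the same log2 ratio (x axis) of the 10 genes, coloured by role, with exact 95% counting intervals, dashed lines at 1.5-fold. *Smad7* stands furthest to the right at 1.45 and *Tgfb1* furthest to the left at -1.23.

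Taking the 10 members together by RPKM, the order in WT ran from *Tgfbr2*, *Tgfbr3*, *Smad4*, *Smad3*, *Tgfb2*, *Smad2*, *Tgfb1*, *Tgfbr1* and *Tgfb3* down to *Smad7*. Neighbours whose counting intervals overlapped were *Smad4* and *Smad3*, *Smad2* and *Tgfb1*, *Tgfb1* and *Tgfbr1*, and *Tgfb3* and *Smad7*. Such an overlap does not show that the levels were equal, and no interval was computed for the ratio within these pairs. In KO the order was *Tgfbr2*, *Smad4*, *Smad3*, *Tgfb2*, *Tgfbr1*, *Smad2*, *Tgfbr3*, *Smad7*, *Tgfb3* and *Tgfb1*, and the intervals overlapped only between *Tgfbr1* and *Smad2* and between *Smad2* and *Tgfbr3*. Of the genes past the minimum level, 94.7% had a lower RPKM than *Tgfbr2* in WT and 96.5% in KO. For *Tgfb1* the same share was 77.6% in WT and 57.0% in KO, and for *Smad7* it was 56.1% and 79.6%.

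The processing notes of the submitters name the mm9 build, which is NCBIM37, and the positions of the genes are given on it. *Tgfb1* lies on chromosome 7 from 26472021 to 26490096, *Tgfb2* on chromosome 1 from 188447065 to 188529871 and *Tgfb3* on chromosome 12 from 87397694 to 87419991, and the longest coding transcript of each has 7 exons. *Tgfbr1* lies on chromosome 4 from 47366094 to 47427803 (9 exons), *Tgfbr2* on chromosome 9 from 115993415 to 116084383 (8 exons) and *Tgfbr3* on chromosome 5 from 107535589 to 107718648 (17 exons). *Smad3* lies on chromosome 9 from 63494574 to 63605801 (9 exons), and *Smad2*, *Smad4* and *Smad7* share chromosome 18.  The deposited files hold 1 count per gene, so the exon or isoform behind a difference is not known.

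Gene length moved with the ratios. The lengths implied by the authors' RPKM were between 2.09 and 6.07 kb for the members. Of the 1292 genes of up to 1 kb, 13.2% were higher in KO and 27.4% were lower, while of the 877 genes above 7 kb 29.3% were higher and 16.8% were lower. Within the length span of the members, which held 7876 genes, 22.7% were higher, 21.7% were lower and the median log2 ratio was 0.09. *Tgfb1* at 2.09 kb was the shortest member and was lower, but *Tgfbr3* at 6.07 kb was the longest and was lower too, and *Smad2*, the second shortest at 2.51 kb, was higher. The part of gene length in the members' ratios was not tested.

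**Figure D4:**
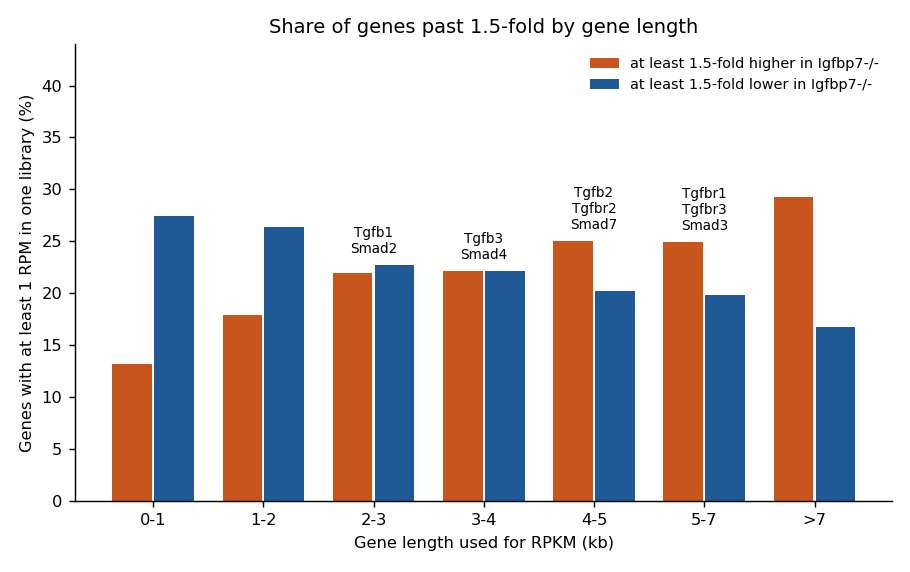
Share of genes with at least 1 RPM in either library (y axis, %) that were higher (orange) or lower (blue) in *Igfbp7-/-* by at least 1.5 times, by the gene length behind the authors' RPKM (x axis, kb). The members are named above the bin they belong to, and the share of higher genes goes from 13.2% in the shortest bin to 29.3% in the longest.

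The genes around these 10 were taken from 9 lists of the wider pathway, which hold 124 further genes, 111 of them with at least 1 RPM in either library. Of the 111, 35 (31.5%) were higher in KO and 29 (26.1%) were lower, and their median log2 ratio was 0.14. The lists differed in direction, and each is read beside the 21.4% and 23.0% of all genes.

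In the list of genes that store and release latent TGF-beta, 5 of 14 were higher in KO and 4 were lower (median log2 ratio 0.41). The subunits of the integrin that frees TGF-beta on epithelial cells were on the higher side. *Itgb6* had 33.0 RPM in WT and 156.4 RPM in KO (log2 ratio 2.24, interval 2.11 to 2.38), and its partner *Itgav* had 253.1 RPM and 704.8 RPM (1.48, 1.43 to 1.53). Of the latent TGF-beta binding proteins, *Ltbp2* was higher (11.2 and 26.2 RPM) and *Ltbp4* was lower (56.9 and 33.6 RPM). Of the other two, named after their values were seen, *Ltbp1* was higher (47.5 and 94.6 RPM) and *Ltbp3* was within 1.5 times (44.5 and 64.5 RPM). *Lrrc33*, which anchors latent TGF-beta 1 on macrophages and related cells, had 13.5 RPM in WT and 3.28 RPM in KO (-2.01, -2.50 to -1.63). *Mmp14*, a membrane-bound protease that can release latent TGF-beta, was lower, with 226.5 RPM and 136.0 RPM.

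Extracellular binding proteins and co-receptors were lower in 6 of the 12 cases with at least 1 RPM, 1 was higher and 5 were within 1.5 times, with a median log2 ratio of -0.51. *Fmod*, a proteoglycan of collagen fibres that binds TGF-beta, went from 72.4 RPM in WT to 3.71 RPM in KO (log2 ratio -4.25, -4.67 to -3.93). *Eng* (endoglin), a co-receptor typical of endothelial cells, had 166.8 RPM in WT and 58.7 RPM in KO (-1.51, -1.61 to -1.40). The activin antagonist *Fst* had 186.6 RPM and 69.5 RPM (-1.42, -1.52 to -1.33), and the decoy receptor gene *Bambi* had 19.5 RPM and 10.8 RPM (-0.85, -1.12 to -0.59). *Eng* and its endothelial partner receptor *Acvrl1* (68.8 RPM in WT, 27.7 RPM in KO, -1.31, -1.47 to -1.16) were lower beside the endothelial markers, of which *Pecam1* had 322.5 RPM and 88.9 RPM and *Tie1* had 83.3 RPM and 13.7 RPM. *Lrrc33* was lower beside the leukocyte markers, of which *Cd74* had 526.6 RPM and 69.7 RPM (log2 ratio -2.92). Of the 11 leukocyte markers 10 were lower, with a median log2 ratio of -1.50. The remaining one, *Itgam*, named after its values were seen, had 4.78 RPM in WT and 6.28 RPM in KO. *Fmod* was lower beside the fibroblast marker *Lum* (401.9 and 84.1 RPM), which had the lowest ratio of its list. Of the 9 fibroblast markers 4 were lower and 5 were within 1.5 times, with a median log2 ratio of -0.57. *Pdgfra*, another marker of that list named after its values were seen, had 97.0 RPM in WT and 132.8 RPM in KO. Of the members, *Tgfb1* and *Tgfbr3* were lower in KO as well, whereas the other 8 had more RPM in KO than in WT. The part of cell composition in these differences was not tested.

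Of the 11 activin and BMP ligand genes with at least 1 RPM 7 were lower and 1 was higher (median log2 ratio -0.86), but only 4 of them reached 10 RPM in either library. Among these, the stress-induced ligand gene *Gdf15* was lower, with 25.7 RPM in WT and 12.8 RPM in KO, and *Bmp3* was higher, with 2.42 RPM (83 reads) and 12.7 RPM (446 reads). Of the 8 other type I and type II receptors with at least 1 RPM 3 were higher and 1 was lower. The BMP type II receptor *Bmpr2* had 35.9 RPM in WT and 62.5 RPM in KO, and the activin type II receptor *Acvr2a* had 23.8 RPM and 38.5 RPM. The BMP-activated *Smad1* (91.2 and 91.3 RPM) and *Smad5* (87.3 and 96.2 RPM), named after their values were seen, differed by less than 1.5 times. *Smad6*, the other inhibitory Smad, was at 0.70 RPM (24 reads) in WT and 2.40 RPM (84 reads) in KO (log2 ratio 1.64, interval 0.83 to 2.84), an interval that rests on few reads and holds the ratio of *Smad7*.

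Smad adaptors, co-repressors and co-activators were higher in 7 of the 13 cases with at least 1 RPM, 1 was lower and 5 were within 1.5 times, with a median log2 ratio of 0.60. *Skil* (SnoN), a co-repressor of Smad complexes and, like *Smad7*, a feedback target of the pathway, had 194.2 RPM in WT and 482.7 RPM in KO (log2 ratio 1.31, 1.26 to 1.37). The endosomal Smad anchor gene *Zfyve16* had 14.2 RPM and 30.9 RPM, and the co-activator gene *Crebbp* had 89.3 RPM and 172.6 RPM. *Fkbp1a*, whose protein FKBP12 keeps the type I receptor silent, was the lower one, with 232.1 RPM in WT and 140.8 RPM in KO. *Pmepa1*, a further feedback inhibitor, had 123.3 RPM and 140.1 RPM, a ratio of 1.14, so not every feedback gene was higher. The 7 higher genes of this list were mostly long. *Zfyve9*, named after its values were seen, was 2.17 kb long. The others ran from 5.45 kb (*Zfyve16*) to 8.87 kb (*Trim33*, named likewise). The 5 genes within 1.5 times were at most 4.53 kb long (*Pmepa1*), and *Fkbp1a* was 1.66 kb long. The part of length in their ratios was not tested.

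Of the 10 ubiquitin ligase and deubiquitinase genes 3 were higher and 1 was lower (median log2 ratio 0.33). *Smurf1* and *Smurf2*, the ligases that *Smad7* brings to the receptors, had 47.1 and 86.0 RPM in WT and 103.4 and 134.0 RPM in KO (log2 ratios 1.13 and 0.64). *Rnf111* (Arkadia), a ligase that degrades *Smad7* and *Skil* proteins, had 46.4 RPM and 74.99 RPM (0.69), and *Uchl5* was lower (19.5 and 9.31 RPM). In the TAK1 branch, the Smad-independent arm of the pathway, 2 of 5 genes were higher and none was lower, *Tab3* with 16.6 and 34.4 RPM and *Tab1* with 8.04 and 13.8 RPM.

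**Figure D5:**
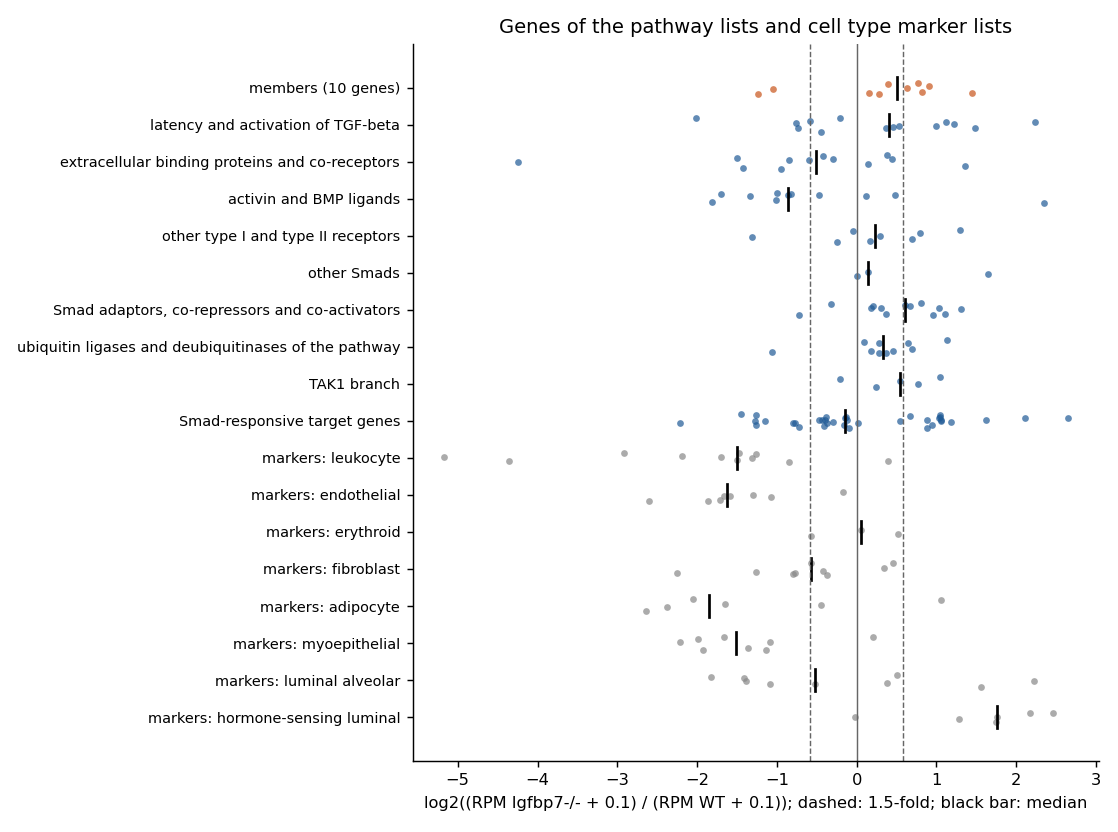
Log2 ratio of *Igfbp7-/-* to WT (x axis) of each gene with at least 1 RPM in either library, by list (y axis), with a black bar at the median of the list and dashed lines at 1.5-fold. The 10 members are orange, pathway lists are blue and cell type marker lists are grey, and the endothelial, leukocyte and myoepithelial markers lie mostly left of -1 while 5 of 6 hormone-sensing luminal markers lie right of 1.

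Smad-responsive target genes went in both directions, since 13 of 36 were higher in KO, 9 were lower and 14 were within 1.5 times (median log2 ratio -0.14). *Klf10*, an early TGF-beta-induced transcription factor gene, had 33.8 RPM in WT and 212.4 RPM in KO (log2 ratio 2.65, interval 2.53 to 2.78). *Cyr61*, a matricellular protein gene that YAP also drives, had 249.7 RPM and 1077 RPM (2.11, 2.06 to 2.16), and *Angptl4*, which PPAR factors also induce, had 112.6 RPM and 345.2 RPM (1.62, 1.54 to 1.69). On the lower side *Acta2*, which encodes smooth muscle actin, had 1052 RPM and 226.7 RPM (-2.21, -2.26 to -2.17), *Pthlh* had 10.1 RPM and 3.66 RPM (-1.45), and *Tagln* had 48.9 RPM and 20.1 RPM (-1.28). Of the 36, 5 are also in the fibroblast or myoepithelial marker list (*Acta2*, *Col1a1*, *Col1a2*, *Col3a1* and *Postn*), and 4 of these 5 were lower. Of the 31 others 13 were higher and 5 were lower, with a median log2 ratio of -0.10. The higher targets thus came from genes outside those marker lists, whereas the lower ones were shared between marker and other genes.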

How the data were processed

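Poly(A) RNA of lineage-depleted MECs was sequenced on SOLiD, 1 library per genotype. The authors aligned the reads (the submitters' processing notes name Bowtie 0.12.3, SAMtools 0.1.15 and the mm9 build) and counted reads per gene. The deposited count column holds raw read counts per gene. The deposited RPM column is the count divided by the mapped reads of the library, and the authors' RPKM column further divides it by gene length. The gene annotation and the strand setting of the counting were not given in the sources used here. The methods also name a human build, although the files list mouse genes.

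Rows without a gene symbol (50 of 25860, with 0.0408% of WT and 0.0484% of KO reads) were left out. Genes with at least 1 RPM in a library were kept, and log2 ratios of KO to WT were taken with a pseudocount of 0.1 RPM. Intervals (95%, exact Clopper-Pearson for ratios and exact Poisson for levels) were computed on read pairs, since 75.8% and 74.1% of low counts were even. They cover counting error only. In single reads, a count of 0 would allow up to 3 reads, 0.0874 RPM in WT and 0.0857 RPM in KO. In read pairs, the unit of the intervals, this limit would be higher. With 1 library per genotype no test was run, so the values compare 2 libraries. Calculations used Python 3.11.15, numpy 2.4.6, scipy 1.17.1 and pandas 2.3.3, and were tested on simulated data.

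The members, the 9 pathway lists and the 8 marker lists were chosen with earlier results of these data known. Named genes were all members, in each pathway list up to 3 genes per direction with the most extreme ratios past 1.5-fold among those with at least 10 RPM, and Smad6, Skil, Pmepa1 and Bambi whatever their values. Marker genes were named as examples. Alternatives were other pseudocounts, minimum levels, scalings, thresholds, intervals on single reads and annotated transcript lengths. An unnamed further column was not used. Of the remaining marker lists, 4 of 9 luminal alveolar genes were lower and 2 higher (88030 and 34494 RPM summed), 4 of the 6 adipocyte genes past 1 RPM were lower and 1 higher, and none of 3 erythroid genes passed 1.5-fold.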

Additional observations from a re-analysis of the deposited data

How the results depend on the processing

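No member changed direction under any alternative, but most alternatives could hardly reverse one. Thresholds and minimum levels leave a ratio as it is, and RPKM uses the same gene length in both libraries. The scalings shift all genes by nearly the same amount. The members' log2 ratios moved most under the scalings to reads on listed genes. Scaling to listed genes moved the median log2 ratio of all genes up by 0.19 and that of the members to 0.70, with 30.6% of all genes then higher and 18.6% lower (21.4% and 23.0% with the deposited RPM). Leaving out ribosomal and small nuclear RNA rows as well, an alternative chosen after seeing the data, moved them by 0.20 and to 0.71, with 31.3% higher and 18.4% lower, and put Smad4 past 1.5-fold. At a threshold of 2-fold and with the deposited RPM, 1 member was higher and 2 were lower, as were 22 and 17 of the pathway genes. These counts depend on the scaling. Scaled to listed genes, the log2 ratios of Tgfb2, Tgfbr1 and Smad7 were 1.003, 1.09 and 1.64, and those of Tgfb1 and Tgfbr3 were -1.05 and -0.86. With annotated transcript lengths 6 of 10 members kept their place in the RPKM order in WT and 8 in KO, and the RPKM of Smad2 relative to Smad7 was 2.23 in WT and 1.26 in KO. No paired analysis was possible because each genotype has 1 library, and for the same reason no library could be left out. Depth limits only the rarest genes named, such as Smad6, and the spread between animals is unknown.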
